A study of Homo sapiens with 5 samples.

Results

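Retention of the introns of ubiquitin-specific protease (USP) genes was measured in DLD-1 cells, an established human colorectal adenocarcinoma line, after loss of either of the splicing factors WBP11 and SNW1. The members were all introns whose gene symbol starts with USP and a digit and whose intron depth plus spliced reads reached 10 in both libraries of a comparison. This gave 267 introns in 43 genes, of 33693 introns in 8170 genes overall. The comparison of WBP11 RNAi held 116 of these introns in 34 genes, that of SNW1 RNAi 180 in 39 genes, and that of WBP11 auxin 173 in 39 genes. All 267 matched introns of GENCODE release 29, where 258 interrupt the coding sequence, 7 lie in a 5' UTR and 2 in a 3' UTR. The depth minimum removed 2, 1 and 1 listed introns. The least depth plus spliced reads of those just outside it lay between 6.32 in USP9Y and 7.40 in USP45, and the nearest introns inside it had 11 and 11.1, both in USP9Y. The name rule also took 3 introns of USP6NL, which encodes a GTPase-activating protein for Rab5 and not a protease, and none of them was called in any comparison. USP9X and USP9Y are related genes on the X and Y chromosomes. Reads may be shared between them, which was not checked, so their values are uncertain.

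WBP11 RNAi and SNW1 RNAi were DLD-1 LacZeo cells given 100 nM siRNA for 72 h. Their control was 1 library of DLD-1 LacZeo cells, which the labels list without treatment and the file headers name as control RNAi. The WBP11 auxin library and its auxin control both received 500 µM auxin for 48 h, and the labels give DLD-1 LacZeo osTIR1 for both. Auxin lets osTIR1, a plant F-box protein, direct a protein with an AID tag to the proteasome. The design text describes the degron cells as knocked out for endogenous WBP11 and carrying an AID-tagged WBP11 transgene. Degron cells without auxin were not analysed here, so a difference between the cell lines cannot be told apart from the loss of WBP11. Each of the 5 groups was 1 polyA RNA library of cells under 10 passages. With no replicates there is no test of any difference and no p-value is given. Intervals are 95% intervals that cover counting error only, Wilson for a retention level and Newcombe for a difference, and reads are not independent molecules. Retention is the deposited ratio, given here in percent. At most USP introns it lies within 1 point of intron depth divided by that depth plus the spliced reads. At a few per library it lies further away, and it can exceed 0 where the listed depth is 0. An intron is called higher or lower when its retention in the depleted library differs from that in the control by at least 10 percentage points.

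Ubiquitin-specific proteases are cysteine proteases that cut ubiquitin from substrate proteins or from ubiquitin chains, and they form the largest family of deubiquitinases. By removing ubiquitin they can rescue a protein from the proteasome, change its traffic through membranes or reset a chromatin or DNA repair signal. USP39 is the exception in the family, since it sits in the U4/U6.U5 tri-snRNP as a splicing factor and lacks protease activity. An unspliced intron that brings a stop codon into the reading frame can prevent synthesis of the full protein.

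The sequences of a few introns show what the splicing machinery had to remove. Bases 1 to 6 and the last 3 bases of each intron are in capitals, and sequences were read 5' to 3' from GENCODE 29 transcripts (hg38) that include the intron. They could be read for 20 of the 267 introns, and the printed ones were chosen after their values were seen. The following 3 short introns were higher after WBP11 auxin.
USP15 intron 9, chr12:62383999-62384077, plus strand: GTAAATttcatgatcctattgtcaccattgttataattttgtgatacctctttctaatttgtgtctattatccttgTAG
USP34 intron 63, chr2:61223165-61223247, minus strand: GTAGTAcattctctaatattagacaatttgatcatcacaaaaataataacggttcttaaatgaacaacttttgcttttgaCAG
USP11 intron 18, chrX:47247222-47247303, plus strand: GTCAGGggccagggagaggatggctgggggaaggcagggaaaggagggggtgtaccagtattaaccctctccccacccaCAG
The next pair, almost as short, stayed within 10 points after WBP11 auxin.
USP34 intron 54, chr2:61236237-61236324, minus strand: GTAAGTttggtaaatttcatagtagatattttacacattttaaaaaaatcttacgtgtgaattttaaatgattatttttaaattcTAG
USP7 intron 24, chr16:8898438-8898530, minus strand: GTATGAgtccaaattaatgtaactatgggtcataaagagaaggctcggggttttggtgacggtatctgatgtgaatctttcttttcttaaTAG
The introns that were higher have 79, 83 and 82 bases and the others 88 and 93. All 5 start with GT and end with AG. Their lengths do not mark a cut-off, since other short USP introns crossed it in both directions after WBP11 auxin. USP19 introns 11 (82 bp) and 10 (84 bp) stayed within 10 points, with changes of 2.72 and 2.92 points. USP19 intron 22 (86 bp) and USP47 intron 9 (90 bp) were higher. Of 29 USP introns of up to 100 bp in that comparison, 11 were higher, or 37.9%, beside 39.2% of all introns of that length. GC content was 29.1% in USP15 intron 9, 27.7% in USP34 intron 63 and 63.4% in USP11 intron 18, against 19.3% in USP34 intron 54 and 37.6% in USP7 intron 24. Each of the 5 has an in-frame stop codon if retained, whose last base is base 36 in USP15 intron 9, base 63 in USP34 intron 63, base 64 in USP11 intron 18, base 4 in USP34 intron 54 and base 6 in USP7 intron 24. The last sequence is shown because its retention was called in opposite directions after WBP11 RNAi and SNW1 RNAi.
USP21 intron 10, chr1:161164613-161164834, plus strand: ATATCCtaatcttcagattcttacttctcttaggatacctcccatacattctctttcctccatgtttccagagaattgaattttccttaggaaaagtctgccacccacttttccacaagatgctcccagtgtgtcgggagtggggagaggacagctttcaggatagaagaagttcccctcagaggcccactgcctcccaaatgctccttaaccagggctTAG
This intron of 222 bp starts with ATATCC, not with the GT of nearly all introns, ends with TAG and holds CCTTAAC with 10 bases after it. These are letters found at introns of the minor, U12-type spliceosome. Its length is a multiple of 3 and it holds no in-frame stop codon. Of 4688 tested introns with a sequence in GENCODE transcripts, 4643 (99.0%) start with GT and end with AG, 41 (0.875%) start with ATATCC or GTATCC, 18 (0.384%) hold CCTTAAC in their last 40 bases, and 8 (0.171%) have both. The search used the transcribed strand only, with motifs chosen after the value of USP21 intron 10 was seen, and a match is not evidence of the spliceosome used.

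Most USP introns stayed within 10 points of their control in each comparison. The rises after SNW1 RNAi lay mostly in 2 genes, while those after WBP11 RNAi and WBP11 auxin were spread over more. After WBP11 RNAi, 5 of 116 USP introns were higher, 1 each in USP1, USP9X, USP20, USP24 and USP43, and 2 were lower, in USP21 and USP39. That is 4.31% higher and 1.72% lower, beside 9.07% and 1.69% of all introns tested. After SNW1 RNAi, 21 of 180 introns in 7 genes were higher and 0 lower. The shares were 11.7% of USP introns higher, beside 16.6% of all introns, and 0.359% of all introns were lower. After WBP11 auxin, 19 of 173 introns in 11 genes were higher, or 11% beside 13.8% of all introns, and 1 was lower, beside 1.37% of all introns. The interval of the difference left out 0 in 2 of the 5 rises after WBP11 RNAi, in 21 of 21 after SNW1 RNAi and in 13 of 19 after WBP11 auxin, and for all 3 falls. Of the rises, 1 of 5, 7 of 21 and 13 of 19 carried no IRFinder warning in either library, the usual warning being uneven coverage of the intron. Among all USP introns tested, 47 of 116, 84 of 180 and 69 of 173 carried none. USP19 and USP21 together held 15 of the 21 rises after SNW1 RNAi, and 6 of the 154 introns of the other genes (3.90%) were higher. USP introns as a set were thus not called higher more often than other introns in any of the comparisons.

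The median change of USP introns was 0.55 points after WBP11 RNAi, 1.75 points after SNW1 RNAi and 1.19 points after WBP11 auxin, beside 0.76, 2.63 and 1.45 points over all introns tested. Relative to those medians of all introns, the USP medians were -0.20, -0.88 and -0.26 points. Median retention of the USP introns was 2.45% in the WBP11 RNAi library and 1.59% in the control, 2.69% in the SNW1 RNAi library and 1.01% in the control, and 3.10% in the WBP11 auxin library and 1.56% in the auxin control. Retention lay above the control in 56.9% of USP introns after WBP11 RNAi, 87.8% after SNW1 RNAi and 73.4% after WBP11 auxin, and in 59.6%, 91.3% and 72.8% of all introns. After SNW1 RNAi most listed USP introns lay a little above the 1 control library, as did most introns of the whole comparison, while few passed 10 points. Only introns with some retention are listed, so an intron can be listed through the depleted library alone. USP1 intron 3, at 0% in the control, is an example. These shares and medians depend on that listing, and how far was not tested. The same control library had a USP median of 1.59% beside WBP11 RNAi and 1.01% beside SNW1 RNAi. In all, 37 introns in 14 genes were higher in at least 1 comparison, and 28 genes had no intron called. Of the 37, 8 were higher in exactly 2 comparisons and 0 in all 3. Only 58 of the 267 introns were tested in all 3 comparisons, 86 in 2 and 123 in 1, which limits this overlap. The same overlap was not counted over all introns. All 37 higher introns lie in coding sequence, as do 258 of the 267 USP introns. A length that is a multiple of 3 was found in 13 of the 37, beside 85 of the 258 coding USP introns. Both RNAi comparisons use the same control library, whose depths and spliced reads were identical at the 87 USP introns listed in both tables, so their values are given side by side only.

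**Figure D1:**
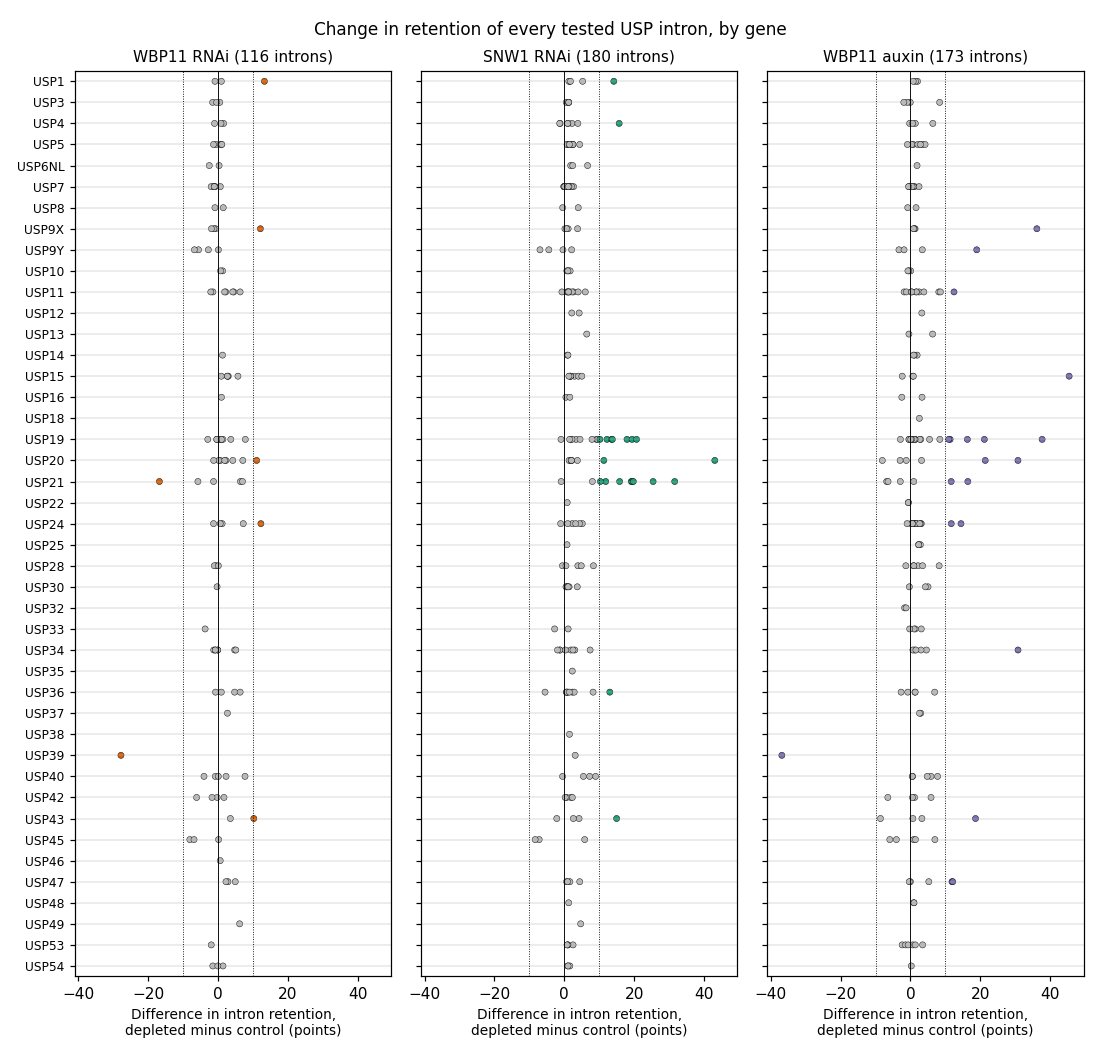
Difference in intron retention (depleted minus control, percentage points, x axis) of every tested USP intron, 1 row per gene and 1 panel per comparison. Coloured points differ by at least 10 points (dotted lines) and grey points do not. The calls after SNW1 RNAi gather in USP19 and USP21, and those after WBP11 auxin are spread over 12 genes, USP39 with its fall included.

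The USP genes that act on receptors and signalling proteins include several with a short intron that was higher after WBP11 auxin. In this list of 15 genes, 2 of 47 introns were higher after WBP11 RNAi, 10 of 67 after SNW1 RNAi and 11 of 64 after WBP11 auxin, with none lower. These are 4.26%, 14.9% and 17.2%, beside 9.07%, 16.6% and 13.8% of all introns, and the list's introns tested after WBP11 auxin are short, with a median of 234.5 bp beside 609 bp over all USP introns there. USP15, a protease of SMAD and TGF-beta receptor signalling, had the highest rise of any USP intron. Its intron 9 of 20 (79 bp) was retained at 7.20% after WBP11 RNAi, 4.46% after SNW1 RNAi and 1.54% in the control. The same intron stood at 45.4% (interval 38.9 to 52.1) in the WBP11 auxin library, from an intron depth of 111. In the auxin control it was at 0% with 85 spliced reads, which allows up to 3.53%. The difference was 45.4 points (interval 37.6 to 52.1), against 5.66 points (-1.83 to 11.8) after WBP11 RNAi and 2.93 points (-4.22 to 8.63) after SNW1 RNAi. With the ratio recomputed from depth and spliced reads, the difference after WBP11 auxin was 52.5 points. The other 3 USP15 introns tested after WBP11 auxin stayed within 10 points, with a median change of 0.75 points over all 4. Spliced reads of USP15, scaled to the total of listed introns, were 149%, 207% and 202% of control in the order WBP11 RNAi, SNW1 RNAi and WBP11 auxin.

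USP9X, which trims ubiquitin from proteins such as MCL1 and SMAD4, and USP34, which acts on axin in WNT signalling, gave the same picture of 1 short intron among quiet neighbours. USP9X intron 8 of 44 (chrX:41141218-41141292, plus strand, 75 bp) was at 12.1% after WBP11 RNAi, 3.80% after SNW1 RNAi and 0% in the control, where 82 spliced reads allow up to 3.66%. It was at 36.2% in the WBP11 auxin library and 0% in the auxin control, where 33 spliced reads allow up to 9.09%. The difference was 12.1 points (5.39 to 19.8) after WBP11 RNAi and 36.2 points (21.2 to 48.5) after WBP11 auxin. This is the only USP intron called higher under both ways of removing WBP11, and not all USP introns were tested under both. The other 3 USP9X introns tested in each of these comparisons were within 2 points of their control. USP34 intron 63 of 79 (83 bp) was at 6.61% after WBP11 RNAi, 1.88% after SNW1 RNAi and 1.55% in the control. In the auxin pair it was at 32.7% in the WBP11 auxin library and 1.92% in the auxin control, a difference of 30.8 points (22.6 to 38.4). USP34 intron 54, printed above, was at 3.12% and 0.0888% in the same 2 libraries. USP11, a protease linked to TGF-beta signalling and to BRCA2, had 11 introns tested after WBP11 auxin. Its intron 18 of 20 (82 bp) was at 22.9% in the WBP11 auxin library and 10.5% in the auxin control, a difference of 12.5 points (4.21 to 20.5), and at 10.1% after WBP11 RNAi, 7.82% after SNW1 RNAi and 3.85% in the control.

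USP20, which deubiquitinates the beta2-adrenergic receptor and HIF-1 alpha, had a pair of nearby short introns that were higher after SNW1 RNAi and WBP11 auxin but not after WBP11 RNAi. Intron 18 of 24 (chr9:129874757-129874828, plus strand, 72 bp) was at 9.52% after WBP11 RNAi, 52.4% after SNW1 RNAi and 9.33% in the control. It was at 43.1% in the WBP11 auxin library and 12.3% in the auxin control. Depth was low, with 13 and 37 spliced reads in the SNW1 RNAi and control libraries and 23 and 17 in the WBP11 auxin and auxin control libraries, so the differences of 43.1 points (21.2 to 61.2) and 30.8 points (5.61 to 48.1) are imprecise. USP20 intron 20 (80 bp) was at 4.61% after WBP11 RNAi, 11.7% after SNW1 RNAi and 0.416% in the control, where the listed depth was 0 with 65 spliced reads. The same intron was at 32.5% in the WBP11 auxin library and 11.1% in the auxin control. Its differences were 11.3 points (3.23 to 20.6) after SNW1 RNAi and 21.4 points (1.62 to 37.1) after WBP11 auxin. USP20 intron 12 (307 bp) was called higher after WBP11 RNAi, at 24.3% against 13.3% in the control, with an interval of -5.66 to 28.2 points that includes 0.

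**Figure D2:**
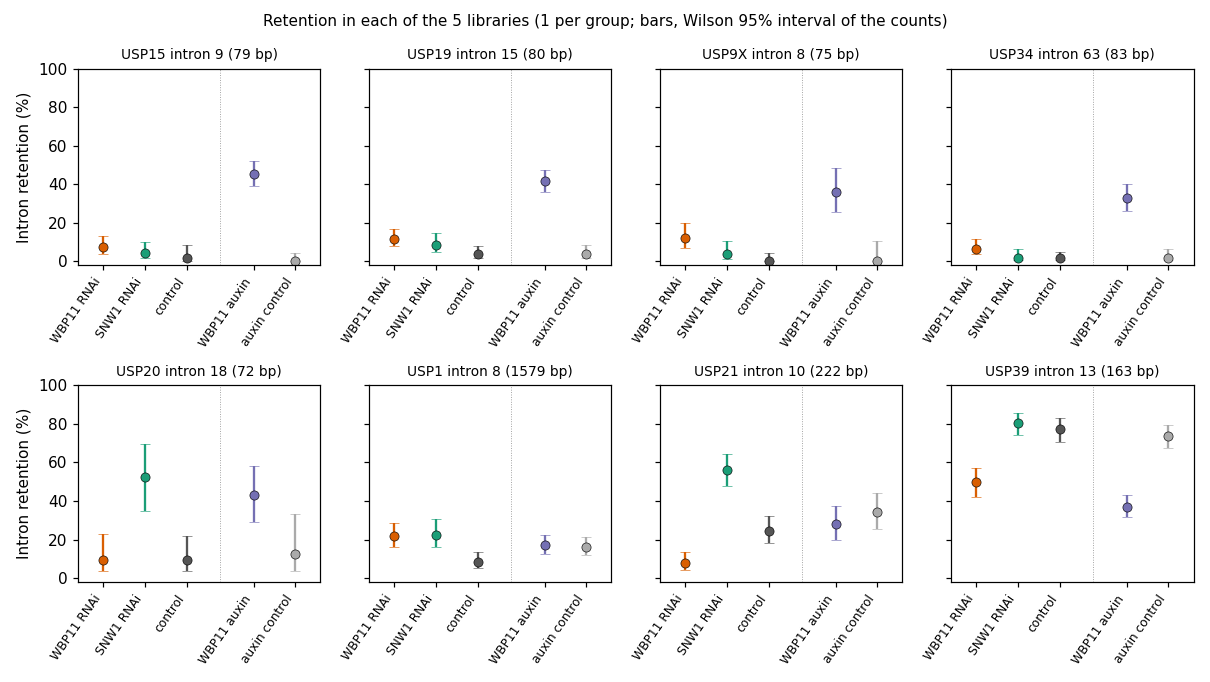
Intron retention (%, y axis) of 8 USP introns in each of the 5 libraries, 1 library per group, with the RNAi libraries and their control left of the dotted line and the auxin libraries right of it. Points are deposited ratios and bars Wilson 95% intervals. The 4 introns of the upper row are highest in the WBP11 auxin library, USP21 intron 10 is highest in the SNW1 RNAi library, and USP39 intron 13 is lowest in the WBP11 RNAi and WBP11 auxin libraries.

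USP19, a protease anchored in the endoplasmic reticulum membrane with a role in disposal of misfolded proteins, had several introns called after SNW1 RNAi and after WBP11 auxin. Of its 19 tested introns, 7 of 16 were higher after SNW1 RNAi, 5 of 18 after WBP11 auxin and 0 of 9 after WBP11 RNAi. The 7 introns were all tested after WBP11 auxin as well, whereas intron 12 and intron 6 of the transcript with 25 introns, higher after WBP11 auxin, had no tested value after SNW1 RNAi, and no difference between the comparisons was tested. The median change over the gene was 9.36 points after SNW1 RNAi, 2.04 points after WBP11 auxin and 0.59 points after WBP11 RNAi. USP19 intron 8 of 25 (117 bp) was at 21.1% in the SNW1 RNAi library and 0.440% in the control, a difference of 20.7 points (12.9 to 29.5). In the auxin pair the same intron was at 2.37% in the WBP11 auxin library and 5.24% in the auxin control. Intron 7 (99 bp) was at 20.5% after SNW1 RNAi, 1.68% after WBP11 RNAi and 1.09% in the control, and at 3.39% after WBP11 auxin and 2.02% in the auxin control. The highest rise after WBP11 auxin was in intron 15 (chr3:49114094-49114173, minus strand, 80 bp), at 41.7% in the WBP11 auxin library and 4.02% in the auxin control, a difference of 37.7 points (30.4 to 44.0). That intron was at 11.6% after WBP11 RNAi, 8.33% after SNW1 RNAi and 3.83% in the control. Its difference after WBP11 RNAi was 7.78 points (2.16 to 13.1), short of a call.

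Intron 24 of USP19 (81 bp) was the only one of the gene called in more than 1 comparison. It was at 15.4% after SNW1 RNAi and 1.67% in the control, and at 31.2% after WBP11 auxin and 10.1% in the auxin control. The other rises after SNW1 RNAi lay between 10.2 points in intron 13 (10.2% against 0%, a control share that 136 spliced reads limit to 2.21%) and 17.9 points in intron 4 (20.2% against 2.30%), which differed by 8.41 points after WBP11 auxin. The other rises after WBP11 auxin were 16.3 points in intron 12, at 23.3% against 7.0%, 11.3 points in intron 6 and 11 points in intron 22. Spliced reads of USP19 numbered 1688 in the SNW1 RNAi library and 2118 in the control, and scaled to the total of listed introns they were 137% of control after WBP11 RNAi, 106% after SNW1 RNAi and 160% after WBP11 auxin.

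USP21, which removes ubiquitin from histone H2A, carried every rise in the chromatin list. That list of 9 genes had 8 of 29 introns higher after SNW1 RNAi and 2 of 21 after WBP11 auxin, all in USP21, and 0 of 16 higher and 1 lower after WBP11 RNAi. The shares higher were 27.6% after SNW1 RNAi and 9.52% after WBP11 auxin, beside 16.6% and 13.8% of all introns. After WBP11 RNAi 0% were higher and 6.25% lower, beside 9.07% and 1.69% of all introns. Introns of USP3 and USP16, other H2A proteases, of USP22, the protease of the SAGA complex, and of USP7 stayed within 10 points in each comparison that tested them. In USP21, 8 of 10 tested introns were higher after SNW1 RNAi, with a median change of 17.5 points over the gene. The control already retained several of them, so that introns 4, 5 and 10 stood at 31.0%, 26.1% and 24.5% there. Only 5 USP21 introns were tested after WBP11 RNAi and 6 after WBP11 auxin. Of the 8, introns 3, 4, 7 and 12 had no tested value after WBP11 RNAi, and introns 4, 7 and 9 none after WBP11 auxin. Intron 10 of 12 was at 7.69% after WBP11 RNAi (interval 4.21 to 13.6), 56.1% after SNW1 RNAi (47.6 to 64.3) and 24.5% in the control (18.2 to 32.1), so the intervals of the 3 libraries do not overlap. The difference was -16.8 points (-25.2 to -8.15) after WBP11 RNAi and 31.6 points (20.2 to 41.9) after SNW1 RNAi. In the auxin pair it was at 27.9% in the WBP11 auxin library and 34.3% in the auxin control, a difference of -6.41 points whose interval (-19.0 to 6.55) includes 0.

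Intron 4 of USP21 (224 bp) was at 56.4% after SNW1 RNAi and 31.0% in the control, a difference of 25.4 points (12.0 to 37.6). Intron 9 (283 bp) was at 17.1% after WBP11 RNAi, 38.2% after SNW1 RNAi and 18.5% in the control. Introns 3, 7, 11 and 12 were higher by 19.2, 19.4, 11.9 and 10.3 points after SNW1 RNAi. Intron 5 (192 bp) was at 33.1% after WBP11 RNAi, 42.0% after SNW1 RNAi and 26.1% in the control, and at 55.3% after WBP11 auxin and 38.9% in the auxin control. Its rise of 16.4 points after WBP11 auxin has an interval of -0.191 to 31.9, and that of intron 11, at 36.9% against 25.3%, one of -0.661 to 23.4, so both include 0. In the WBP11 auxin library intron 5 carried a warning of a minor isoform, with a listed depth of 42.0 and 22 spliced reads. With the ratio recomputed from depth and spliced reads, the rise of intron 5 after WBP11 auxin was 24.7 points. The introns of USP21 that were not called after SNW1 RNAi were intron 2 of 12, with 8.04 points, and intron 2 of 13 in the 5' UTR of another transcript, with -0.904 points. Spliced reads of USP21 numbered 804 in the SNW1 RNAi library and 1046 in the control, and scaled in the same way they were 89.2% of control after WBP11 RNAi, 102% after SNW1 RNAi and 87.0% after WBP11 auxin.

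Other tested introns that start with ATATCC or GTATCC, the starts searched for with USP21 intron 10, were called in both directions after loss of WBP11. Without USP21, 2 of 24 were higher and 2 lower after WBP11 RNAi (median change -2.30 points), and 5 of 25 were higher and 2 lower after WBP11 auxin (median -1.70 points). After SNW1 RNAi 6 of 28 were higher and 0 lower (median 4.03 points). The medians of all introns tested were 0.76 points after WBP11 RNAi, 1.45 points after WBP11 auxin and 2.63 points after SNW1 RNAi. In the same order, 9.07%, 13.8% and 16.6% of all introns tested were higher and 1.69%, 1.37% and 0.359% lower. The introns with these starts came only from the 4688 that lie inside an annotated exon of their gene. The values of all introns are not limited in this way, so the 2 sets are not alike. The introns that hold CCTTAAC as well, 3 in each WBP11 comparison and 6 after SNW1 RNAi, changed by between -7.73 and -0.717 points after WBP11 RNAi, between -2.02 and -0.844 points after WBP11 auxin and between -1.70 and 19.7 points after SNW1 RNAi. None of these was called after either loss of WBP11, and 2 of the 6 were higher after SNW1 RNAi.

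**Figure D3:**
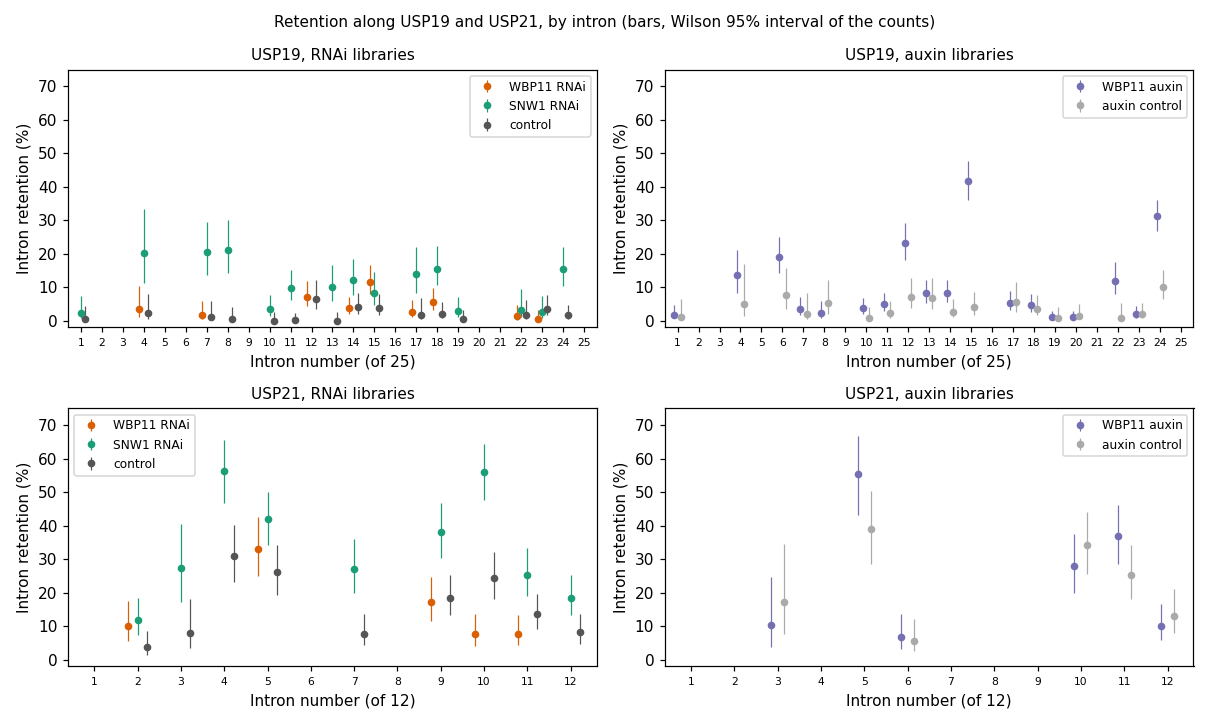
Intron retention (%, y axis) along USP19 and USP21 by intron number (x axis), RNAi libraries and their control in the left panels and auxin libraries in the right panels, with Wilson 95% intervals as bars. Gaps are introns without a tested value, and introns numbered on other transcripts are not drawn. SNW1 RNAi lies above the control along most of USP21. In USP19 the WBP11 auxin library is highest at intron 15. The SNW1 RNAi library stands at similar levels at introns 8 (21.1%), 7 (20.5%) and 4 (20.2%), and has no value at introns 6 and 12.

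Among USP genes tied to the spliceosome, USP39 was the one with lower retention after loss of WBP11. Its last intron, intron 13 of 13 (chr2:85648854-85649016, plus strand, 163 bp), lies in the 3' UTR and overlaps an annotated exon, and it is the only USP39 intron tested. It was at 49.6% after WBP11 RNAi (interval 42.3 to 57.0), 80.6% after SNW1 RNAi (74.2 to 85.7) and 77.5% in the control (70.5 to 83.2). In the auxin pair it was at 37.0% in the WBP11 auxin library (31.5 to 43.0) and 73.8% in the auxin control (67.5 to 79.3). The differences were -27.8 points (-37.1 to -17.7), 3.12 points (-5.46 to 11.8) and -36.8 points (-44.6 to -28.1), so retention was lower under both ways of removing WBP11 and within 10 points after SNW1 RNAi. Reads that span the intron numbered 87, 35 and 37 in the WBP11 RNAi, SNW1 RNAi and control libraries, and 168 and 55 in the WBP11 auxin and auxin control libraries. Because the retained form is itself an annotated exon, the ratio here compares 2 forms of the end of the transcript. USP4 and USP15 deubiquitinate PRPF3 and PRPF31 of the tri-snRNP. USP4 intron 17 of 21 (264 bp) was at 2.43% after WBP11 RNAi, 17.3% after SNW1 RNAi and 1.62% in the control, a difference of 15.7 points (8.12 to 24.0) after SNW1 RNAi, and at 1.52% after WBP11 auxin and 0.898% in the auxin control. Over the list of USP39, USP4 and USP15, 0 of 9 introns were higher and 1 lower after WBP11 RNAi, 1 of 15 higher after SNW1 RNAi, and 1 of 9 higher and 1 lower after WBP11 auxin. The shares higher are 0%, 6.67% and 11.1%, beside 9.07%, 16.6% and 13.8% of all introns. The shares lower are 11.1%, 0% and 11.1%, beside 1.69%, 0.359% and 1.37%.

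In the list of 8 genes of DNA damage and p53 control, 2 of 26 introns were higher after WBP11 RNAi, 1 of 40 after SNW1 RNAi and 4 of 44 after WBP11 auxin, with none lower. These are 7.69%, 2.5% and 9.09%, beside 9.07%, 16.6% and 13.8% of all introns. USP1, which removes ubiquitin from FANCD2 and PCNA, had its last intron called in both RNAi comparisons. Intron 8 of 8 (chr1:62448667-62450245, plus strand, 1579 bp) was at 21.7% after WBP11 RNAi, 22.6% after SNW1 RNAi and 8.42% in the control. The differences were 13.2 points (5.88 to 20.7) and 14.2 points (6.11 to 22.8), and IRFinder warned of uneven coverage of this intron in both depleted libraries. In the auxin pair it was at 16.9% in the WBP11 auxin library and 16.1% in the auxin control, a difference of 0.79 points (-6.16 to 7.78). USP47, which acts on DNA polymerase beta, had 2 of 5 introns higher after WBP11 auxin. Its intron 9 (90 bp) was at 11.9% against 0% (82 spliced reads, up to 3.66%), and intron 20 (4832 bp) at 14.3% against 2.19% in the auxin control.

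USP24, which acts on the damage sensor DDB2, had 16 introns tested, and its 3 calls all rest on few reads. Intron 8 (2513 bp) was at 13.1% after WBP11 RNAi, 6.01% after SNW1 RNAi and 0.857% in the control, where the listed depth was 0 with 26 spliced reads. The interval of its 12.2-point rise after WBP11 RNAi (-3.12 to 26.4) includes 0. Introns 23 and 41 were at 14.5% and 17.2% in the WBP11 auxin library and 0% and 5.57% in the auxin control, where both had 18 spliced reads, and both intervals include 0. USP7, the protease of MDM2 and p53, had deep coverage and no call. Its changes lay between -2.0 and 0.62 points over 6 introns after WBP11 RNAi, between -0.16 and 2.64 points over 11 after SNW1 RNAi and between -0.55 and 2.46 points over 7 after WBP11 auxin. USP7 intron 24, printed above, was at 1.15% after SNW1 RNAi and 0.993% in the control, and at 1.37% after WBP11 auxin and 0.50% in the auxin control.

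In the list of proteasome, mitochondrial, autophagy and stress genes, the rises were in USP19 but for 1. The list had 0 of 20 introns higher after WBP11 RNAi, 8 of 45 after SNW1 RNAi and 5 of 41 after WBP11 auxin, and USP19 is also on the receptor list. These are 0%, 17.8% and 12.2%, beside 9.07%, 16.6% and 13.8% of all introns. The exception was intron 14 of USP36 (672 bp), a nucleolar protease that stabilises MYC, at 14.0% after SNW1 RNAi and 1.03% in the control. USP5, which takes apart free ubiquitin chains, changed by between 0.79 and 4.41 points over 8 introns after SNW1 RNAi and between -0.87 and 4.18 points over 7 after WBP11 auxin. USP14, which sits on the proteasome, and USP30, which works against mitophagy at the outer mitochondrial membrane, had none called. USP18, the protease of the ubiquitin-like protein ISG15, was represented by 1 intron, with a change of 2.55 points after WBP11 auxin.

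The list of cell cycle and cytoskeleton genes had 1 of 17, 1 of 23 and 1 of 29 introns higher after WBP11 RNAi, SNW1 RNAi and WBP11 auxin, all in USP43. These are 5.88%, 4.35% and 3.45%, beside 9.07%, 16.6% and 13.8% of all introns. Intron 5 of USP43 (3349 bp) was at 3.72% after WBP11 RNAi, 15.2% after SNW1 RNAi and 0.214% in the control, and at 19.7% after WBP11 auxin and 1.06% in the auxin control. Spliced reads at it numbered 37 or fewer in the WBP11 auxin pair, and the interval of the 18.6-point rise (-1.68 to 32.3) includes 0. Intron 11 of USP43 (106 bp), which overlaps an exon, was at 10.3% after WBP11 RNAi and 0.136% in the control, with an interval of -6.26 to 27.0 points. The same intron was at 9.89% in the WBP11 auxin library and 18.5% in the auxin control, a difference of -8.57 points (-32.9 to 9.52). USP9Y intron 44, which also overlaps an exon, was at 37.8% in the WBP11 auxin library and 18.9% in the auxin control (interval of the difference -3.64 to 36.5). No intron was called in USP3, USP5, USP7, USP28, USP30, USP40, USP42, USP45 or USP53, each of which had 7 or more introns tested.

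Introns of up to 300 bp held most of the rises. Of the 37 USP introns called higher, 15 are up to 100 bp long, 13 are over 100 and up to 300 bp, 5 are over 300 and up to 2000 bp and 4 are longer. After WBP11 auxin, 11 of 29 USP introns of up to 100 bp were higher, 3 of 31 of up to 300 bp, 2 of 69 of up to 2000 bp and 3 of 44 of longer ones, each class starting where the one before it ends. These shares are 37.9%, 9.68%, 2.90% and 6.82%, beside 39.2%, 13.2%, 8.4% and 4.18% of all introns of the same classes. After SNW1 RNAi the counts were 8 of 27, 10 of 39, 2 of 82 and 1 of 32, or 29.6%, 25.6%, 2.44% and 3.12%, beside 26.9%, 24.1%, 14% and 3.97% of all introns. Short USP introns were called about as often as other short introns in both comparisons, a difference that was not tested. After SNW1 RNAi this rested largely on USP19 and USP21. The rises of up to 100 bp lay in 3 of 11 genes, USP19, USP20 and USP21. Those over 100 and up to 300 bp lay in 3 of 20 genes, USP4, USP19 and USP21. Without USP19 and USP21, 6 of 154 introns of any length (3.90%) were higher after SNW1 RNAi. With them included, the lower share over the family after SNW1 RNAi lay in the class between 300 and 2000 bp. After WBP11 RNAi the counts were 1 of 18, 1 of 28, 2 of 55 and 1 of 15, or 5.56%, 3.57%, 3.64% and 6.67%, beside 16.4%, 13.6%, 6.13% and 1.27%. In the shortest class the median change was 1.15, 3.38 and 4.27 points for USP introns after WBP11 RNAi, SNW1 RNAi and WBP11 auxin, beside 1.37, 4.31 and 6.17 points for all introns.

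**Figure D4:**
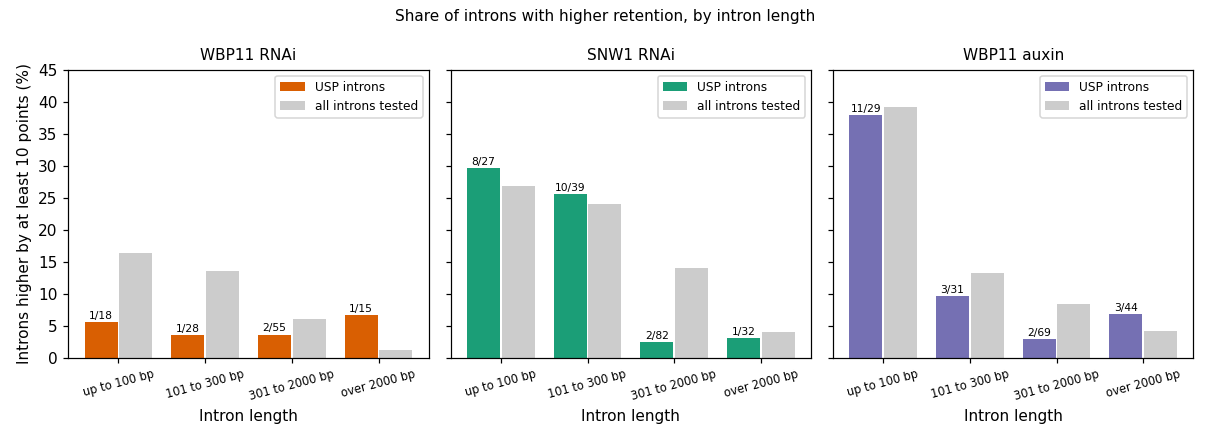
Share of introns higher by at least 10 points (%, y axis) in 4 classes of intron length (x axis) for each comparison, coloured bars for USP introns with their counts and grey bars for all introns tested. After WBP11 auxin the class of up to 100 bp stands highest for USP introns (37.9%) and for all introns (39.2%).

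The 2 control libraries held USP introns at similar levels, with some exceptions that bear on the calls. Of 116 introns tested against both, the auxin control was higher than the control by at least 10 points at 4, which were USP20 intron 20, USP21 introns 5 and 11 and USP43 intron 11, and lower at 1, USP40 intron 5 (0.999% and 11%). Median retention was 1.81% in the auxin control and 1.35% in the control. The RNAi control retained 12 of 210 USP introns at 10% or more.

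Deubiquitinases of other families served as a comparison list of 38 symbols, of which 24 genes with 88 introns were tested. After WBP11 RNAi 2 of 36 of their introns were higher and 1 lower, after SNW1 RNAi 5 of 57 higher and 0 lower, and after WBP11 auxin 6 of 61 higher and 1 lower. As shares higher these are 5.56%, 8.77% and 9.84%, close to the 4.31%, 11.7% and 11% of USP introns, and the difference was not tested. UCHL5, which sits on the proteasome like USP14, had introns of 82 bp and 78 bp at 31.8% and 20.8% in the WBP11 auxin library and 1.39% and 0.318% in the auxin control. BAP1, a histone H2A deubiquitinase like USP21, had an intron of 558 bp at 31.0% after SNW1 RNAi and 7.85% in the control.

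The siRNA targets were low in the libraries labelled for them. Spliced reads of WBP11 numbered 20 in the WBP11 RNAi library and 312 in the control, or 6.75% of control after scaling to the listed totals, and those of SNW1 31 in the SNW1 RNAi library and 401 in the control, or 10.2%. In the auxin pair 1 listed WBP11 intron had 103 and 235 spliced reads, which does not measure the degraded protein. Spliced reads over all listed introns ranged from 2987572 to 5527186 per library, and the median depth plus spliced reads of USP introns from 86.5 to 133. Of 9 epithelial marker genes 4 or 5 were listed per table, of 4 fibroblast markers 0, and of 4 leukocyte markers CD68 in the RNAi tables only. Spliced reads of the listed epithelial markers summed to 39171 in the WBP11 RNAi library and 47906 in the control, to 83896 in the SNW1 RNAi library and 284222 in the control, and to 18063 in the WBP11 auxin library and 28308 in the auxin control, and their part in the results was not tested. The tables list only introns with some retention, so a gene that is not listed is not thereby unexpressed, and in bulk RNA fewer cells and less RNA per cell cannot be told apart.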

How the data were processed

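The deposited files are 3 tables of IRFinder comparisons of STAR alignments, per the file headers. RSEM, bedtools and the build hg38 are listed in the submitters' processing notes, and no version of any tool is given in the sources used here. In the deposited tables the retention ratio is a fraction, the intron depth a coverage signal and the spliced reads a count, none of them scaled between libraries. The authors' p-values compare the reads of 2 libraries, with a score of 33 where no test was made, and they were used only as an alternative. The ratio depends on reads of overlapping exons, and introns without retention are not listed.

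Summed spliced reads of a gene were divided by those of every intron in the table, not by library depth. Differences are depleted minus control, and coordinates are hg38, counted from 1. The USP members and the gene lists were chosen with earlier results of these data known. Named introns are the 10 largest rises and 5 largest falls of each comparison, every USP39 intron, and introns called in opposite directions or in all 3 comparisons. Other introns are named where a count or gene is spelled out. Sequences came from GENCODE 29 transcripts, since no genome sequence was at hand, so splice sites of the other introns are not shown. Python 3.11.15, pandas 2.3.3 and scipy 1.17.1 were used.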

Additional observations from a re-analysis of the deposited data

Results flagged for a closer look

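USP21 intron 10 was picked out because its difference from the shared control had opposite signs, -16.8 points after WBP11 RNAi and 31.6 points after SNW1 RNAi. Each group is 1 library, the difference between the 2 effects was not tested, and the control cancels when the depleted libraries are set side by side, at 7.69% after WBP11 RNAi and 56.1% after SNW1 RNAi. IRFinder warned of uneven coverage of this intron in the control library and in neither RNAi library. After WBP11 auxin the difference was -6.41 points, with an interval that includes 0.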

How the results depend on the processing

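No paired analysis was possible because each group is 1 library, and no replicate could be left out. Counts are given in the order WBP11 RNAi, SNW1 RNAi and WBP11 auxin, with 5, 21 and 19 introns higher and 2, 0 and 1 lower as reported. A difference of 5 points gave 16, 38 and 34 higher and 8, 4 and 7 lower, and one of 20 points 0, 4 and 7 higher and 1, 0 and 1 lower. A 2-fold change of the ratio (pseudocount 0.01) gave 35, 86 and 61 higher and 15, 8 and 9 lower. Requiring an interval without 0 left 2, 21 and 13 higher. A depth minimum of 30 left 3, 20 and 13 higher, and no minimum gave 3, 0 and 2 lower. Introns without a warning in either library gave 1, 7 and 13 higher and 1, 0 and 1 lower. Most calls after SNW1 RNAi thus carry a warning in at least 1 library, as do most USP introns tested there, of which 84 of 180 carry none. Leaving out introns that overlap an exon gave 1, 0 and 0 lower. With 1 intron per gene 1, 2 and 1 were higher and 1, 0 and 1 lower. The authors' deposited p-values, adjusted, called 3, 29 and 16 higher. Centring on the median of all introns gave 4, 16 and 17 higher and 2, 1 and 2 lower, and turned the median change of USP introns to -0.20, -0.88 and -0.26 points. Alternatives chosen after seeing the data were leaving out USP6NL, which changed no count, leaving out USP19 and USP21, which left 5, 6 and 12 higher and 1, 0 and 1 lower, and a ratio recomputed from depth and spliced reads, which gave 5, 22 and 19 higher. Under that recomputed ratio, 58 of 59 differences of named introns stayed within their interval, and that of USP15 intron 9 after WBP11 auxin was 52.5 points. The deposited ratio differed from the recomputed one by more than 1 point at 2 to 8 USP introns per library, and by up to 10.4 points in the WBP11 auxin library. Calls at introns with under 30 reads, such as those of USP24 and USP43, are limited by depth.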
